A study of Mus musculus with 9 samples.

Results

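The Notch receptors, ligands and targets described here are 10 genes: the receptors Notch1, Notch2, Notch3 and Notch4, the ligands Dll1, Dll3 and Jag1, the target genes Hes1 and Hey1, and Lfng, which modifies the receptors. They were chosen by name, and all probe sets whose only gene symbol was one of these names were taken, which gave 16 of 20380 probe sets with a single symbol and 10 of 12393 genes. The mouse embryos were wild type, and RNA came from their mid-foregut, the gut tube between the pharyngeal arches and the liver. There were 3 arrays at 16-20 somites (embryonic day 8.5), 3 at 21-25 somites (embryonic day 9.0) and 3 at 26-30 somites (embryonic day 9.5). Each array carried 1 biological replicate, described in the labels as a pool of 5 to 10 foreguts with the neural tube and heart dissected away, and no embryo was treated or mutant. Signals are MAS5 intensities on a linear scale, which summarise the probes of a set on 1 Affymetrix array, and the brightness of different probe sets cannot be set against each other as transcript levels. In such whole tissue, fewer cells of a type and less RNA per cell cannot be told apart.

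Notch receptors are transmembrane proteins that are activated by ligands of the Delta-like and Jagged families on neighbouring cells. Binding leads to cleavage of the receptor by an ADAM protease and then by gamma-secretase, and the released intracellular part enters the nucleus, where it binds the DNA-binding protein RBPJ and Mastermind-like proteins and turns on genes of the Hes and Hey families. These encode basic helix-loop-helix repressors, and in gut-derived organs the pathway is known for holding back neuroendocrine and endocrine differentiation, and in vessels for arterial identity.

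The windows from 250 bases before to 50 bases after a gene start are shown for Notch1 and Dll3, whose stage differences were the widest among the 10 genes, and for Lfng, the only one of the matched genes with an RBPJ-type motif in its window. The RefSeq promoter table (GRCm38.p6) matched 8 of the 10 genes with 9 windows, and Hes1 and Hey1 were not matched. Capitals mark the core motif TGGGAA or its longer form GTGGGAA on either strand, and the longer form contains the core. The sequences run 5′ to 3′ along the gene.
Notch1, chr2:26503773-26504072, minus strand: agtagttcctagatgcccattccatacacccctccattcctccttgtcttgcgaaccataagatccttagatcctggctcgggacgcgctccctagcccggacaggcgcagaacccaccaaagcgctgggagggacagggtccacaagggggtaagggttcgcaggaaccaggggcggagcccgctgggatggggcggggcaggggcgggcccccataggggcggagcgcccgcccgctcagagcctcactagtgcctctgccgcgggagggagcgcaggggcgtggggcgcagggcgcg
Dll3, chr7:28301736-28302035, minus strand: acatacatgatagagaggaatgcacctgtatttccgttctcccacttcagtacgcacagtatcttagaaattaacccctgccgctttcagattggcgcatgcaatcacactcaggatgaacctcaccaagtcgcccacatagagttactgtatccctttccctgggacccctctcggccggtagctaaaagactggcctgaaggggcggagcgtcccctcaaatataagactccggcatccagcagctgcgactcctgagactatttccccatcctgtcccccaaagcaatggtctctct
Lfng, chr5:140607091-140607390, plus strand: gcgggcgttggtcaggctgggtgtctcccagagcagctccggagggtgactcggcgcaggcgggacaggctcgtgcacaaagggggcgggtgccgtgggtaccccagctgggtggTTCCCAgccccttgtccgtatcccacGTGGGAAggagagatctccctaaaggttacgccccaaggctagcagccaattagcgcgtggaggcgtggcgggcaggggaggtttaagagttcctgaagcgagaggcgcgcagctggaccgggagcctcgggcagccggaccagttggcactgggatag
The core was present in 1 of the 9 windows, against 25.6% of all 32851 windows in the table, and the longer form in the same 1, against 6.38% of all. In Lfng the longer form began 109 bases before the start and a core on the opposite strand 135 bases before it. These matches describe letters in a window of 300 bases and no binding was measured.

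Array quality differed within and between stages. The brightest probe set of an array reached 27480 to 32584 on 3 arrays, against 43792 to 61749 on the other 6. Replicate 1 of 21-25 somites and replicates 1 and 2 of 26-30 somites are these 3 narrow-range arrays. No array of 16-20 somites is among them, so signal range and stage are partly confounded and cannot be fully told apart in comparisons with that stage. The array of 16-20 somites replicate 2 stood apart in markers of neighbouring organs: its cardiac markers summed to 18774, against 3429 and 4317 in the other replicates of its stage, and its hepatic markers to 34293, against 2313 and 4234. Without it Notch1 had a log2 difference of -0.04 for 26-30 minus 16-20 somites and of 1.04 for 21-25 minus 16-20 somites, and no other sign changed among the member differences given here except those of Notch2 in the first step (0.01) and Notch3 over the whole interval (-0.09). The 3′ to 5′ signal ratio of beta-actin, which grows as RNA is shorter, was highest on 21-25 somites replicate 2 (45.3, against 20.9 to 36.8 elsewhere). It read 22.2 on 21-25 somites replicate 1, and 22.0 and 20.9 on 26-30 somites replicates 1 and 2. Each other array read 22.4 or more. For the control gene Gapdh the same arrays, in that order, read 21.0, 19.9 and 16.0, and each other array 21.6 or more. The highest Gapdh ratio was on 26-30 somites replicate 3 (40.9, actin 32.5), followed by 21-25 somites replicate 2 (36.4). That replicate 3 is the only array of its stage left when the narrow-range arrays are taken out. A narrow range thus did not go with a high ratio. Foregut markers were present: the epithelial regulators Foxa2 and Sox2 averaged 614 and 580.3 and the mesenchymal genes Wnt2 and Isl1 936 and 1443 over the 9 arrays, whereas the probe sets of Shh (14.3), Nkx2-1 (34.6) and Foxf1 (22.4) were dim.

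By the brightest probe set of each gene, Notch1 had its highest signals at 21-25 somites. Dll3 and Notch4 were higher at 26-30 than at 16-20 somites, and Notch2 and Hey1 were lower. The dimmer probe sets of Notch4 and Notch2 did not show this, with log2 differences of 0.03 ± 0.32 and -0.03 ± 0.40. Over the 9 arrays the 2 probe sets correlated at r = -0.28 for Notch4 and -0.27 for Notch2. Notch3, Dll1, Hes1 and Lfng had overlapping stages, and Jag1 was too dim to test. None of these differences passed the test over all genes. In limma, 0 of the 9 tested members had an adjusted p under 0.05 in any comparison, which was also the case for 0% of the 8675 genes tested. At an unadjusted p under 0.05, the count was 1 of 9 members for 26-30 against 16-20 somites, against 11.2% of all genes, 1 of 9 for 21-25 against 16-20 somites, against 11% of all, and 2 of 9 for 26-30 against 21-25 somites, against 4.09% of all. It was 2 of 9 (Notch1 and Dll3) for any difference between the stages, against 9.71% of all, and 1 of 9 (Notch1) for the difference between the steps, against 6.31% of all.

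**Figure D1:**
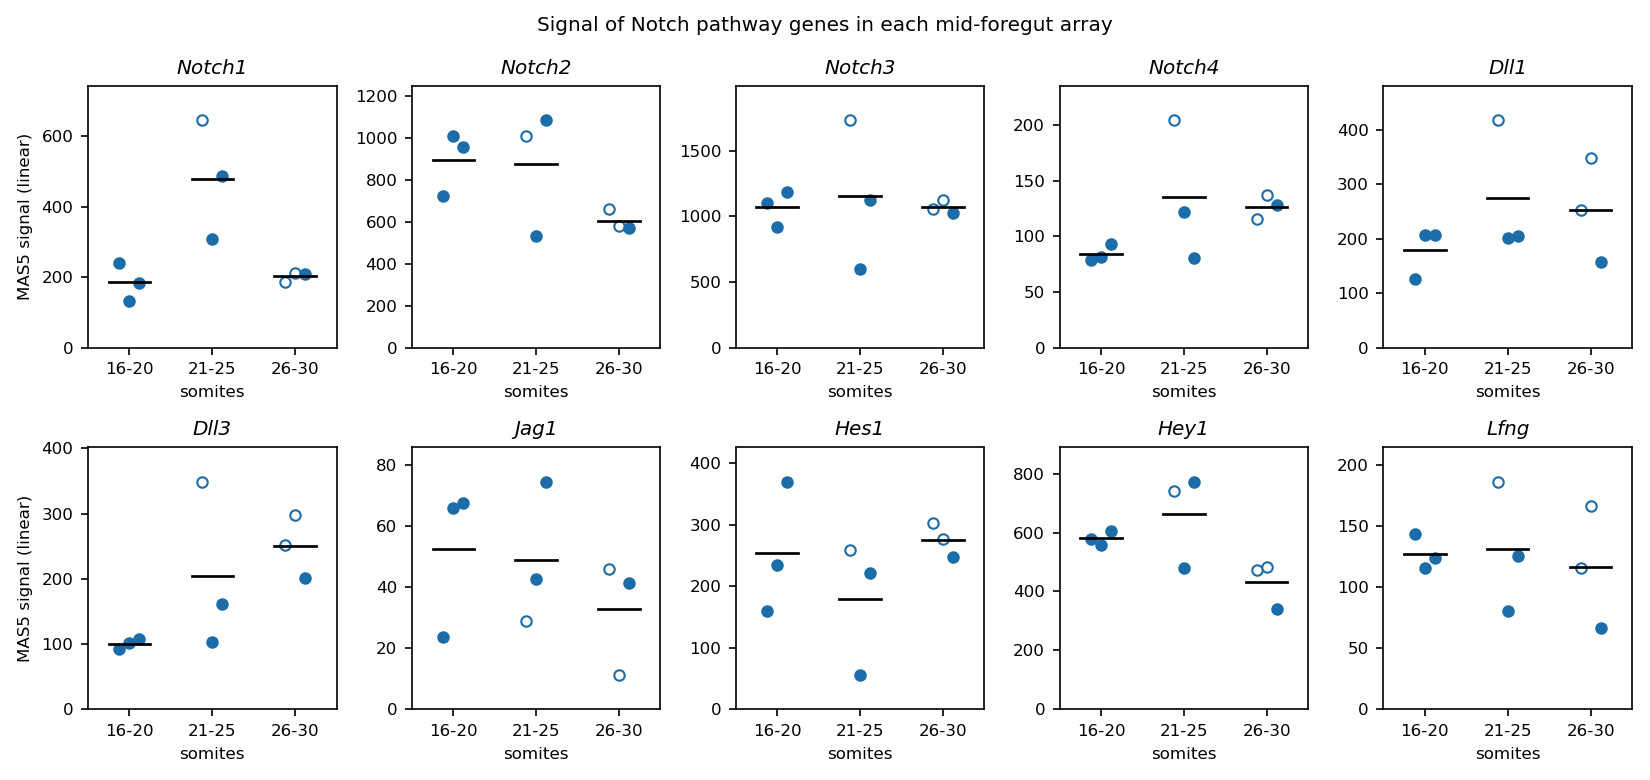
MAS5 signal (linear axis from 0) of each of the 10 genes on each array, by stage in somites. Each point is 1 array, open points are the 3 narrow-range arrays and bars are the stage means. Notch1 signals at 21-25 somites are 308 to 646, above all 6 other arrays, while most other genes overlap between stages.

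Notch1, a receptor used in many embryonic tissues including vessels, was measured by 2 probe sets. The brighter one (1418634_at) had signals of 241, 133 and 183 at 16-20 somites, of 646, 308 and 486 at 21-25 somites, and of 188, 212 and 209.6 at 26-30 somites. All 3 arrays at 21-25 somites lay above the other 6 arrays, a pattern found in 1.27% of all genes tested, and the first and last stages overlapped. No member lay below the other 6 arrays in that way, against 1.04% of all genes. The stage means were 185 ± 54.1, 480.0 ± 169 and 203 ± 13.6 in order of stage (SD, n = 3 each).

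In limma the log2 difference of Notch1 was 1.23 ± 0.29 (SE) for 21-25 minus 16-20 somites, or 2.35-fold, with an adjusted p of 0.316 and an unadjusted p of 9.80e-04. It was -1.09 ± 0.29 for 26-30 minus 21-25 somites, with an adjusted p of 0.981, and 0.15 ± 0.29 for 26-30 minus 16-20 somites, with an adjusted p of 0.869. The contrast between the steps, which asks whether the second difference equals the first, was -2.32 ± 0.49 with an adjusted p of 0.754 in limma. Weighting the arrays by their spread changed the call of the second step, to -1.19 with an adjusted p of 0.0341 in limma. In that fit the weights were 0.401 and 0.333 for 21-25 somites replicates 1 and 2, against 2.86 for replicate 3. The weighted fit called 29 of 8675 genes in the second step, against 0 without weights.

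The highest Notch1 signal was on a narrow-range array. Without 21-25 somites replicate 1 the first difference was 1.00 and the second -0.85. The dimmer Notch1 probe set (1418633_at) had 21.1, 160.0 and 65.8 at 16-20 somites, 202, 69.4 and 87.9 at 21-25 somites, and 60.0, 104 and 78.2 at 26-30 somites. It overlapped in all comparisons, with a log2 difference of 0.54 ± 0.47 for 21-25 minus 16-20 somites, and the mean of both probe sets gave 0.89.

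Endothelial cells are one site of Notch1 and Notch4 expression, and the endothelial list had 15 of its 18 markers on the array above the filter on low signal. Its summed signal was 5864 to 6608 at 16-20, 6580.4 to 8629 at 21-25 and 6215 to 6957 at 26-30 somites, with the highest sum on 21-25 somites replicate 1. The vascular receptor Kdr had 358, 451 and 471 at 16-20, 729, 371 and 694 at 21-25, and 414, 409.9 and 317 at 26-30 somites. Of the 15 markers, 12 were positive for 21-25 minus 16-20 somites (median log2 difference 0.20) and 5 for 26-30 minus 21-25 somites (median -0.14). Over all genes 50.2% and 50.9% were positive. Cldn5 went the other way in both steps, with -0.16 and 0.34. Tie1 (10.5 on average), Erg (15.5) and Pecam1 (45.1) were dim. The list of somite and presomitic mesoderm markers, another Notch-using tissue, had 6 of 14 above the filter and summed to 1104 to 1373, 1335 to 2063 and 1051 to 1223 in order of stage, with the highest sum again on 21-25 somites replicate 1. Of its genes, Uncx (15.2 on average), Myf5 (19.8) and Pax1 (25.1) were dim, and Meox1 (407), Mesp2 (171), Meox2 (155), Tcf15 (110), Tbx6 (87.4) and Msgn1 (83.5) passed the filter. Meox1, a homeobox gene of somites, had 287, 427 and 417 at 16-20, 766.5, 408 and 570.0 at 21-25, and 239, 238 and 309 at 26-30 somites. All arrays of its last stage lay below those of the middle stage, as for 4.84% of all genes. Of the 6 that passed, 5 were positive for 21-25 minus 16-20 somites (median 0.43) and 2 for 26-30 minus 21-25 somites (median -0.17). In the latter Meox1 had -1.04, against 0.06 for Meox2, 0.01 for Msgn1 and -0.00137 for Mesp2. The part of either tissue in the Notch1 values was not tested.

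Notch2 was bright on probe set 1455556_at, with 721, 1012 and 955 at 16-20 somites, 1009, 533 and 1085 at 21-25 somites, and 662, 579 and 569 at 26-30 somites. All arrays of the last stage lay below those of the first, and the middle stage spanned both. The log2 difference was -0.54 ± 0.28 for 26-30 minus 16-20 somites (adjusted p = 0.469 in limma), -0.08 ± 0.28 for the first step and -0.46 ± 0.28 for the second. Its dimmer probe set (1451889_at) gave -0.03 ± 0.40 over the whole interval and 0.46 ± 0.40 for the second step, so the probe sets differed in sign there, and the mean of both gave -0.29 over the whole interval.

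Notch3, a receptor known from the smooth muscle and mural cells of vessels, had 1104, 921 and 1183 at 16-20, 1733, 596 and 1126 at 21-25, and 1054, 1126 and 1029 at 26-30 somites on probe set 1421965_s_at. The stages overlapped, and their means were 1069 ± 134, 1152 ± 569 and 1069.6 ± 50.4 (SD, n = 3 each). The log2 difference for 26-30 minus 16-20 somites was 0.01, with a 95% interval of -0.68 to 0.70, and it changed sign with quantile normalization, array weights and the mean of both probe sets. Its dimmer probe set (1421964_at) had stage means of 166 ± 39.5, 199.8 ± 101 and 140.3 ± 10.4. Smooth muscle and pericyte markers had 6 of 8 above the filter, of which 2 were positive over the whole interval (median -0.17), beside 50.9% of all genes. The part of these cells in the Notch3 values was not tested.

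Notch4, a receptor best known from endothelium, had 78.4, 81.7 and 93.3 at 16-20, 204, 122 and 80.6 at 21-25, and 115, 137 and 128 at 26-30 somites on probe set 1456263_at. The last stage lay above the first without overlap, and replicates of the middle stage reached from the level of the first stage to the highest signal of all. The log2 difference was 0.47 ± 0.28 for 26-30 minus 16-20 somites (adjusted p = 0.538 in limma) and 0.48 ± 0.28 for 21-25 minus 16-20 somites, and the first step was 0.19 without 21-25 somites replicate 1. The dimmer probe set of Notch4 (1449146_at) gave 0.03 ± 0.32 over the whole interval, with stage means of 71.2 ± 32.3, 63.6 ± 29.0 and 70.2 ± 13.8.

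Among the ligands, Dll3 differed most. Dll3 is a divergent Delta-like protein that in mice acts in somite formation, does not activate receptors on neighbouring cells and can inhibit Notch within its own cell. Its signals were 92.1, 101 and 108 at 16-20 somites, 349, 103 and 161 at 21-25 somites, and 252, 298 and 201 at 26-30 somites. The first stage was tight, all arrays of the last stage lay above it, and the middle stage overlapped both. The stage means were 100.3 ± 7.83, 204 ± 129 and 250.5 ± 48.7 (SD, n = 3 each).

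The log2 difference of Dll3 was 1.12 ± 0.34 (SE) for 26-30 minus 16-20 somites, or 2.17-fold, with an adjusted p of 0.351 and an unadjusted p of 0.00635 in limma. It was 0.72 ± 0.34 for the first step and 0.39 ± 0.34 for the second, with adjusted p of 0.461 and 0.998 in limma. With array weights the whole interval gave 1.13 and passed, with an adjusted p of 0.0176 in limma. That fit called 725 of 8675 genes over the whole interval, against 0 without weights. Its weights were 3.38 and 1.34 for 26-30 somites replicates 1 and 2, both narrow-range arrays, against 0.669 for replicate 3. The 3 highest Dll3 signals were on the 3 narrow-range arrays, and without these the whole interval gave 0.85 (adjusted p = 0.999 in limma), a fit that leaves 1 array at 26-30 somites and takes its spread from the other stages. Without 21-25 somites replicate 1 the first step gave 0.30 and the second 0.82, and without 21-25 somites replicate 2 they gave 1.07 and 0.05.

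Dll1, a Delta-like ligand of somites and of cells entering neural and endocrine differentiation, had 125, 206.5 and 207 at 16-20, 418, 201.5 and 206 at 21-25, and 252, 349 and 157 at 26-30 somites. The stages overlapped, and the log2 difference was 0.40 ± 0.34 for 26-30 minus 16-20 somites and 0.50 ± 0.34 for 21-25 minus 16-20 somites (adjusted p = 0.660 and 0.612 in limma). The 3 highest signals were again on the narrow-range arrays, and without these the whole interval gave -0.14 and the first step 0.19. Neural markers, with 8 of 15 above the filter, summed to 1801 to 1985, 1534 to 2414 and 1679 to 1961 in order of stage. The neural genes Sox1 (9.53 on average), Olig2 (5.83) and Neurog1 (25.5) were dim, whereas Nes (729), Dcx (234), Sox3 (179), Nhlh1 (150.1), Pax6 (117) and Neurog2 (93.6) were among the 8 that passed. Neurog2, a proneural gene, had 172.5, 62.5 and 95.6 at 16-20, 182, 65.1 and 161 at 21-25, and 15.7, 52.5 and 35.8 at 26-30 somites. Its log2 difference for 26-30 minus 21-25 somites, -1.37, was the lowest of the 8. Their median was -0.17, and 2 were positive (Stmn2 at 0.35 and Elavl4 at 0.10), beside 50.9% of all genes. For 26-30 minus 16-20 somites 3 of the 8 were positive, with a median of -0.10. Enteroendocrine and pancreatic progenitor markers had 7 of 9 above the filter. Of these 7, 6 were positive in the first step (median 0.40), 2 in the second (median -0.04) and 4 over the whole interval (median 0.26), beside 50.2%, 50.9% and 50.9% of all genes. The part of neural or endocrine cells in the Dll1 and Dll3 values was not tested.

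Jag1, a Jagged-family ligand with roles in vessels and bile ducts, was left out of the test by the filter on low signal. Its brighter probe set (1421105_at) had 23.6, 65.9 and 67.5 at 16-20, 28.9, 42.7 and 74.5 at 21-25, and 46.0, 11.1 and 41.3 at 26-30 somites, with all stages overlapping. Its other probe set (1421106_at) read 7.2, 9.5 and 25.3 at 16-20, 33.3, 40.5 and 57.9 at 21-25, and 6.6, 52.9 and 6.4 at 26-30 somites. Both probe sets lay between the 17.4th and 26.3rd percentile of probe set means, and without the filter the brighter one gave -0.41 ± 0.36 for 26-30 minus 16-20 somites. The other one gave 0.81 ± 0.34 for 21-25 minus 16-20 somites (95% interval 0.06 to 1.57, adjusted p = 0.533 in limma), and all its arrays at 21-25 somites lay above those at 16-20 somites. The brighter probe set gave -0.06 for the same step, and the pseudocount of 26.2 added before the log is close to all these signals.

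Hes1, a target that represses proneural and endocrine genes, had 159, 235 and 370.2 at 16-20, 259, 55.9 and 221 at 21-25, and 304, 276.5 and 247 at 26-30 somites. The stages overlapped, with 1 low array, 21-25 somites replicate 2, which also had the highest actin ratio. The log2 difference was 0.17 ± 0.42 for 26-30 minus 16-20 somites, -0.58 ± 0.42 for the first step and 0.75 ± 0.42 for the second (adjusted p = 0.899, 0.648 and 0.998 in limma). Without 21-25 somites replicate 2 the first step gave -0.01 and the second 0.18.

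Hey1, a target with a known role in arteries and the heart, had 579.6, 558 and 606 at 16-20, 739.7, 481 and 773 at 21-25, and 472, 483 and 341 at 26-30 somites. All arrays of the last stage lay below those of the first, and the middle stage overlapped both. The log2 difference was -0.42 ± 0.24 for 26-30 minus 16-20 somites, 0.16 ± 0.24 for the first step and -0.58 ± 0.24 for the second (adjusted p = 0.514, 0.842 and 0.998 in limma). Without the 3 narrow-range arrays the whole interval gave -0.73 and the second step -0.79, from the single remaining array of 26-30 somites, which had the lowest Hey1 signal. Without 26-30 somites replicate 3, that lowest array, the whole interval gave -0.27.

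Lfng, a glycosyltransferase that extends O-linked fucose on Notch receptors and changes their response to ligands, had 143, 115 and 124 at 16-20, 186.5, 80.8 and 125.5 at 21-25, and 116, 167 and 66.2 at 26-30 somites on probe set 1420643_at. The stages overlapped, and the log2 difference for 26-30 minus 16-20 somites was -0.17, with a 95% interval of -0.87 to 0.53. The second probe set (1449943_at) read 3.6 to 16.6 on all 9 arrays, at the 2.77th percentile of probe sets.

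**Figure D2:**
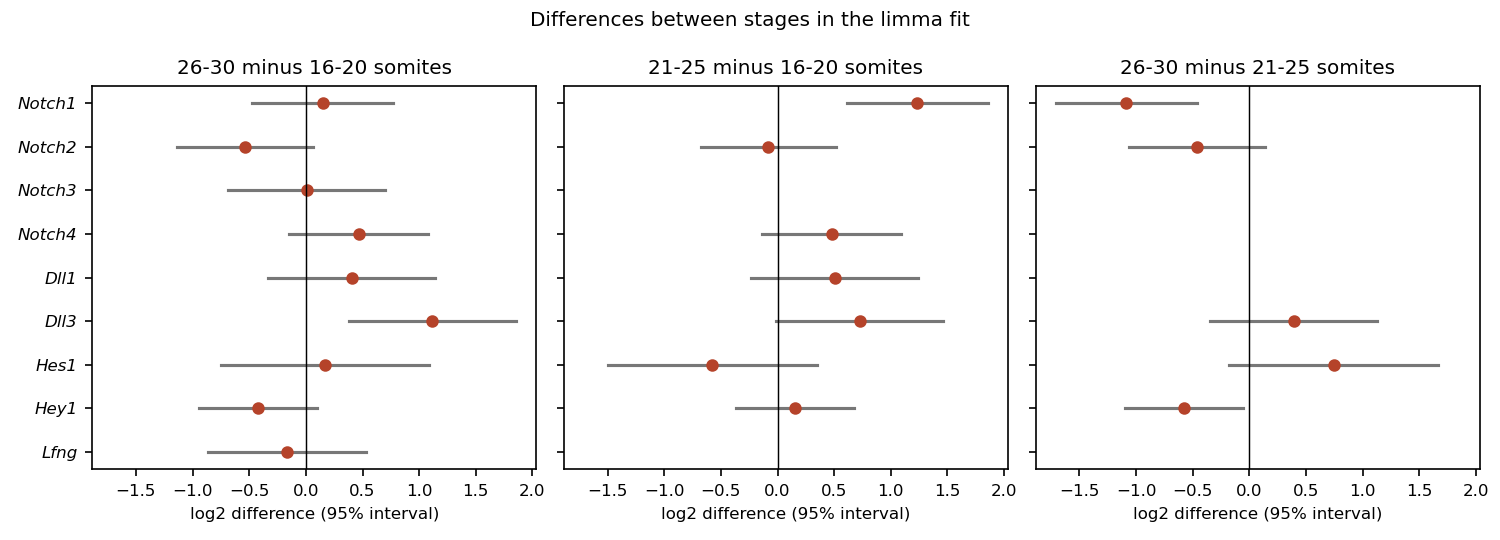
Log2 differences between stages (points) with 95% intervals (lines) from limma for the 9 tested genes, with the comparison above each panel and 0 marked by a vertical line. The interval leaves out 0 for Notch1 in both steps, for Dll3 over the whole interval and for Hey1 in the second step, and no adjusted p is under 0.05. Steps are drawn for the genes whose step values are given in the text.

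Between stages, the later arrays lay wholly above the earlier ones for 2 of 9 tested members over the whole interval (Dll3 and Notch4, against 11.2% of all genes), and wholly below for 2 (Notch2 and Hey1, against 10.2%). Each gene was counted by its brightest probe set, and the dimmer ones of Notch4 and Notch2 overlapped over that interval. For 21-25 against 16-20 somites they lay above for 1 (Notch1, against 6.95% of all genes) and below for 0 (against 7.29%). For 26-30 against 21-25 somites they lay above for 0 (against 4.53%) and below for 1 (Notch1, against 4.84%). The median log2 difference of the 9 members was 0.15 over the whole interval, 0.16 for the first step and -0.10 for the second, beside medians of 0.01, 0.00182 and 0.00645 over all genes. Over the whole interval Notch1, Notch3 and Notch4 had positive values and Notch2 a negative one, with Notch3 near 0 and changing sign with the scaling.

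The members varied most within the middle stage. The spread of log2 signal between replicates was widest at 21-25 somites for 8 of the 9 tested members, and its median over them was 0.18, 0.55 and 0.14 in order of stage, beside 0.27, 0.35 and 0.24 over all genes. The median over all genes was thus also widest in that stage, and the share of all genes with this pattern was not counted. The array of 21-25 somites replicate 1 held the highest signal of 6 of the 9, against 21.9% of all genes, and 21-25 somites replicate 2 the lowest of 3, against 21.1% of all genes. The array of 16-20 somites replicate 1 also held the lowest of 3, against 13.1% of all genes. The median deviation of the 9 members from their own means was 0.69 on replicate 1 and -0.46 on replicate 2 of 21-25 somites, beside 0.12 and -0.04 for all genes. These are an array with a narrow range and the array with the highest actin ratio. The 3 narrow-range arrays had the 3 lowest sums of erythroid markers, at 18020 on 21-25 somites replicate 1 and at 28352 and 20725 on 26-30 somites replicates 1 and 2, against 32026 to 57724 on the other 6. The sums of somite, neural, neural crest (1968) and foregut mesenchyme markers (16629) were also highest on 21-25 somites replicate 1. The part of array quality or of tissue composition in the spread was not tested.

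**Figure D3:**
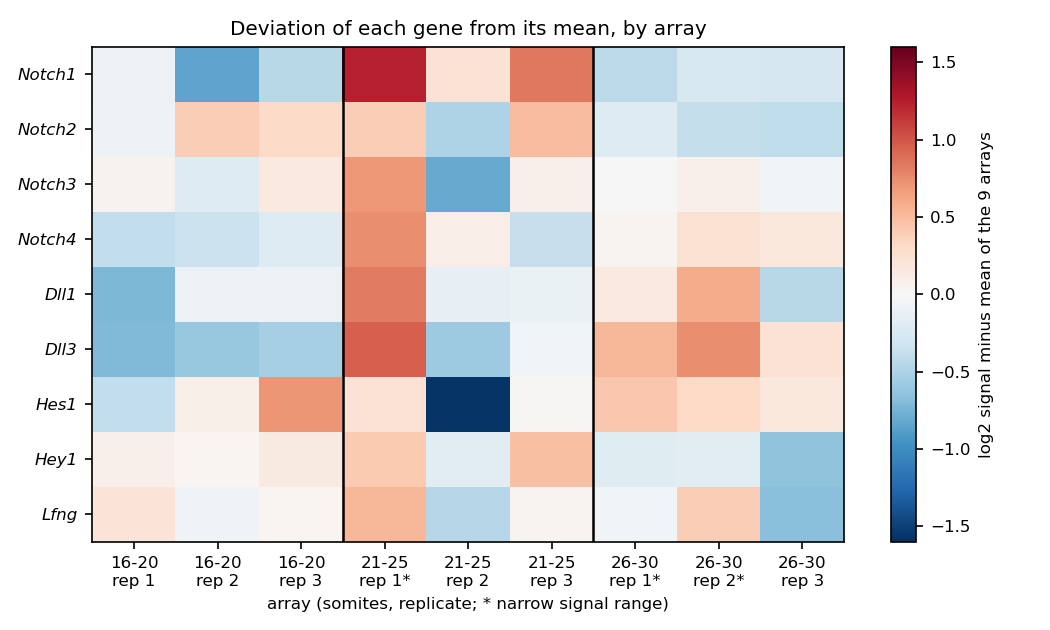
Deviation of log2 signal from the mean over 9 arrays, for the 9 tested genes (rows) on each array (columns, grouped by stage, with a star on the narrow-range arrays). The column of 21-25 somites replicate 1 is positive for every gene shown, with a median of 0.69, and that of 21-25 somites replicate 2 is negative for most, with a median of -0.46.

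The genes with profiles most like those of the leading members were sought among 8674 other genes by Pearson correlation of log2 signals over the 9 arrays, which share array quality, and are given as a description. For Notch1 they were Tmem68 (r = 0.96), the basement membrane collagen gene Col4a1 (r = 0.96) and the ubiquitin ligase gene Mycbp2 (r = 0.92). All of these peaked in the middle stage like Notch1, which largely follows from their selection. Their stage means were 448, 782 and 413 for Tmem68, 1885, 2883 and 1869 for Col4a1, and 810, 1298 and 740 for Mycbp2. For Dll3 they were Smim19, the centromere gene Cenpc1 and the O-GlcNAc transferase gene Ogt, all at r = 0.97 to 0.98. For Hey1 they were Lrp4 (r = 0.94), Serpinf1 (r = 0.92) and the secreted frizzled-related gene Sfrp4 (r = 0.91).

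Beyond the 10 genes, a list of 58 further genes of the pathway was examined, of which 49 were on the array and 40 passed the filter. In limma, 0 of 40 were called higher and 0 lower in each comparison between stages, as were 0% of all genes. Over the whole interval 23 of 40 had positive values, beside 50.9% of all genes, with a median log2 difference of 0.10 beside 0.01 for all genes, and 6 lay wholly above and 2 wholly below the earlier stage, which is 15% and 5% of them, beside 11.2% and 10.2% of all genes. For the first step 23 of 40 were positive with a median of 0.10, and 6 lay wholly above and 2 wholly below, beside 6.95% and 7.29% of all genes. For the second step 24 of 40 were positive with a median of 0.03, and 1 lay wholly above and 1 wholly below, beside 4.53% and 4.84%.

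Of the nuclear complex and its corepressors, 10 of 13 genes were positive over the whole interval, beside 50.9% of all genes, with a median of 0.23. Rbpj, the DNA-binding partner of the cleaved receptor, had 406, 375 and 426 at 16-20, 966, 512 and 595 at 21-25, and 706, 1006 and 447 at 26-30 somites. Both later stages lay above the first without overlap, with log2 differences of 0.73 ± 0.31 for 26-30 minus 16-20 somites and 0.69 ± 0.31 for 21-25 minus 16-20 somites (adjusted p = 0.412 and 0.444 in limma). Tle4, a Groucho-family corepressor that Hes proteins recruit, had stage means of 583 ± 263, 1011 ± 163 and 1168 ± 460.4 and a difference of 0.98 ± 0.35 over the whole interval (adjusted p = 0.366 in limma), where its stages overlapped. The 3 highest signals of Rbpj were on the narrow-range arrays too, as were those of Tle4, Maml1, Hdac2 and Kat2a in this group.

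In the receptor cleavage group, 4 of 7 genes were positive. Psenen, a gamma-secretase subunit, had 1136, 923 and 1839 at 26-30 somites, against 2134, 2944 and 2612 at 16-20 somites, without overlap, and a log2 difference of -1.01 ± 0.45 (adjusted p = 0.432 in limma). Its 3 lowest signals were on the narrow-range arrays, which also held the 3 highest signals of Adam10, Poglut1, Itch and Tle4. Aph1a, another gamma-secretase subunit, had its lowest stage mean at 21-25 somites, at 378 ± 80.0, against 569 ± 64.4 at 16-20 somites, and 548 ± 88.5 at 26-30 somites. Adam10, the protease of the first cleavage, had 2354, 2428 and 1770 at 26-30 somites, against 1669.5, 1723 and 1546 at 16-20 somites, and was named after its values were seen. The differences of Psenen and Adam10 (0.39 ± 0.27) had opposite signs, and neither passed the test.

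Of the enzymes that glycosylate the receptor, 3 of 4 were positive over the whole interval. Poglut1, which adds O-linked glucose, had 902, 772 and 556 at 26-30 somites, against 567, 441 and 548.5 at 16-20 somites, a difference of 0.48 ± 0.23. Pofut1, which adds the O-linked fucose that Lfng extends, had a difference of -0.47 ± 0.29. Among genes of ligand endocytosis and receptor turnover, 4 of 9 were positive. Numb, an endocytic inhibitor of Notch, had 2200.1, 2456 and 1467 at 21-25 somites, against 1336, 721 and 1161 at 16-20 somites, without overlap, and a log2 difference of 0.92 ± 0.28 (adjusted p = 0.333 in limma). Itch, a ubiquitin ligase that acts on Notch, had 0.48 ± 0.34 over the whole interval.

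Jag2 and Dlk1, a noncanonical ligand, had differences of -0.24 ± 0.30 and -0.29 ± 0.49 over the whole interval, and 1 of 4 tested ligands was positive. Of 8 further genes listed as targets and on the array, 3 passed the filter, and 1 of them was positive. Nrarp, a target that restrains Notch signalling, had 0.34 ± 0.23. Hes6, which antagonises Hes1, had -0.41 ± 0.26. Most of this list is of the Hes and Hey families, and whether Notch controls each gene here was not measured. Hes5, Hey2, Hes2, Hes3 and Hes7 did not pass. Hes7, the oscillating repressor of presomitic mesoderm, read 254.7 on 16-20 somites replicate 2 and 21.1 to 95.7 on the other 8 arrays, and was named after its values were seen.

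**Figure D4:**
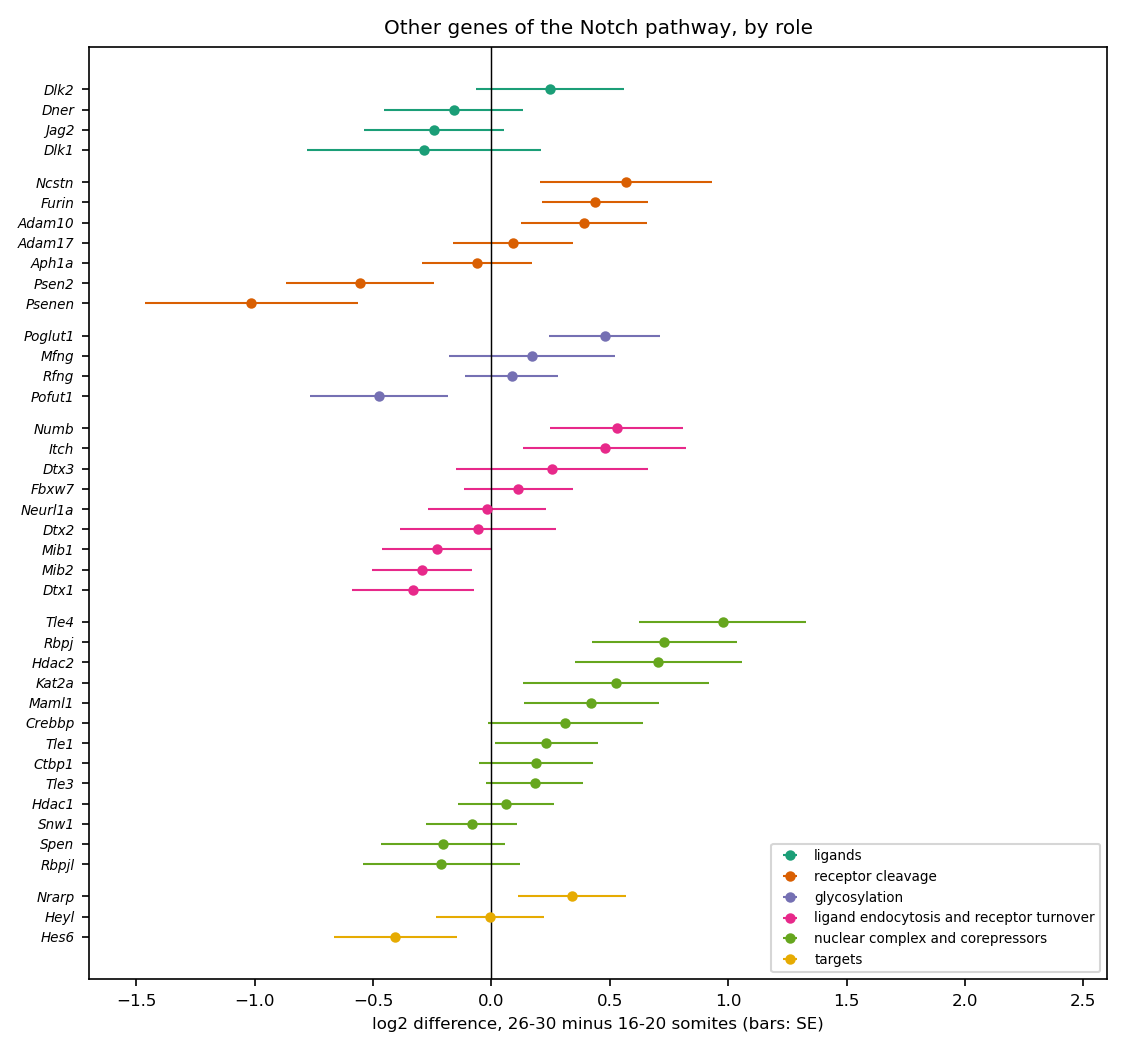
Log2 difference of 26-30 minus 16-20 somites (points, with SE as bars) for the 40 tested further genes of the Notch pathway, coloured and grouped by role. Genes of the nuclear complex lie mostly to the right of 0, with Tle4 at 0.98 and Rbpj at 0.73, and Psenen lies farthest to the left at -1.01. The 3 narrow-range arrays held the 3 highest signals of Tle4 and Rbpj and the 3 lowest of Psenen.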

How the data were processed

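Gene expression was measured in 9 pools of mouse mid-foregut, 3 at each of 3 somite stages. Per the labels' protocols, RNA (100 ng) was amplified in 2 rounds with biotin labelling. The authors deposited 1 intensity per probe set and array. The submitters' processing notes name MAS5, and the sources used here give neither its version nor its detection calls. The platform annotation named the probe sets, and 20351 of 20380 identifiers matched RefSeq.

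Intensities were used as deposited, since array medians lay within 0.36 log2, and were taken to log2 after adding 26.2, the 20th percentile. A gene was represented by its brightest probe set, genes under the 30th percentile of means were left out, and 8675 were tested with limma 3.58.1 in R 4.3.3 (lmFit, eBayes with a trend, 1 model over all arrays, two-sided, Benjamini-Hochberg at 0.05). All 15838 probe sets above the same percentile were fitted likewise. The fit was tested on simulated data. Alternatives were quantile normalization or median centring, other pseudocounts and filters, array weights, a replicate block, averaged probe sets, only the compared arrays, and leaving out arrays. Members, lists, alternatives and the rule for named genes (all members, and up to 2 pathway genes per role with the smallest F-test p, and 3 similar genes for 3 members) were chosen with earlier results of these data known. The number of arrays limits the precision. Each p-value sets a difference against the spread between arrays of 1 pool each, which holds differences between pools and technical differences together.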

Additional observations from a re-analysis of the deposited data

How the results depend on the processing

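Across 413 refits of 21 differences of the members under 20 alternatives, 397 had the same sign and stayed on the same side of an adjusted p of 0.05 in limma. Array weights brought 2 past it, given above. A filter at the 50th percentile left out Dll3, Notch4 and Lfng, and averaging probe sets left out Lfng, so these gave no value there. The sign changed in 14, among them Dll1 over the whole interval and Notch2 in the second step, whose differences of 0.40 and -0.46 were about as wide as those of Notch4 and Hey1. For Notch3 over the whole interval it was -0.024 with quantile normalization, -0.037 with array weights, -0.090 when probe sets were averaged and -0.047 without the 3 narrow-range arrays. Without those arrays Dll1 was -0.14 over the whole interval. For Notch2, array weights gave 0.14 in the first step and averaged probe sets 0.00146 in the second. Leaving out single arrays gave -0.043 to 0.33 for Notch1, -0.094 to 0.082 for Notch3, -0.10 to 0.45 for Hes1 and -0.42 to 0.11 for Lfng over the whole interval, and -0.26 to 0.23 for Notch2 in the first step.

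The count of genes called by limma was 0 of 8675 in each comparison. With array weights it was 725 over the whole interval, 29 in the second step and 330 for any difference between stages. It was 4 over the whole interval with the 6 arrays compared, and 1 in the first step without the 3 narrow-range arrays. Leaving out single arrays gave 0 to 1 over the whole interval, 0 to 2 in the first step, 0 to 3 for the difference between the steps and 0 to 2 for any difference. The replicate block changed no call: it gave 1.23 for Notch1 in the first step and 1.12 for Dll3 over the whole interval. Same-numbered arrays did not deviate together (r from -0.28 to 0.26), and 2 of 9 correlated best with their own number. No pairing by number was seen, and with 3 arrays per stage this cannot show that there was none. With 3 arrays per stage and no detection calls, small differences and dim probe sets cannot be resolved.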
